A study of Mus musculus with 15 samples.

Results

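Interferon response genes are the genes that cells switch on when an interferon binds its receptor. The 39 described here were chosen by gene symbol from a fixed list, and all 39 were found among the 54532 genes of a table of skin gene expression. Mouse skin was profiled by sequencing of poly-A RNA in 4 groups of 3 libraries, which were wild type skin without treatment, wild type skin given MC903 for 7 days, skin labelled Trpv3 knockout without treatment, and skin labelled Trpv3 knockout given MC903 for 7 days. The compound MC903, also named calcipotriol, resembles vitamin D and inflames mouse skin in a way used to model atopic dermatitis. TRPV3 is a calcium-permeable channel of keratinocytes. The study text speaks of conditional knockout mice, but the labels give neither the Cre driver, the age and strain of the mice nor a vehicle for the untreated groups. Nor is it stated that each library stands for its own animal, and the p-values therefore measure the spread among libraries, part of which could be technical. A library of whole skin mixes RNA of many cell types, so that a change in the number of cells of a type and a change in the RNA per cell cannot be told apart.

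Type I interferons (interferon alpha and beta) signal through the receptor chains Ifnar1 and Ifnar2 and the kinases Jak1 and Tyk2 to a complex that holds Stat2 and Irf9. That complex binds interferon-stimulated response elements, whose core is spelled GAAA, 2 bases of any kind, then GAAA. Interferon gamma, made mainly by T and NK cells, signals through Ifngr1 and Ifngr2 to activation of genes with gamma-activated sites of the form TTCNNNGAA. The products of the induced genes block viral replication, cut or sense foreign nucleic acid, load antigen, or call in T cells through the chemokine receptor Cxcr3.

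The promoter windows of RefSeq (build GRCm38.p6, from 250 bases before to 50 bases after the gene start) were searched for both motifs on both strands, because these are the letters that the interferon-activated complexes read. A window was found for 30 of the 39 genes, and 9 had no entry. The response element core lay in 19 of the 30 windows (63.3%), against 1079 of the 27025 genes with a window in the promoter table (3.99%). The gamma-activated form lay in 7 of 30 (23.3%), against 9.55% of all genes. All 6 interferon-inducible GTPases held the response element core. The excerpts below come from genes whose values carry the account that follows, and each is read 5′ to 3′ on the strand of its gene, with matches of the response element core in capitals. Matches of the gamma-activated form are left in lower case, and among these excerpts Igtp holds one. A match in capitals that begins with TTTC is the same core read on the opposite strand.
Stat2: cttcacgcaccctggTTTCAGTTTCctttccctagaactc
Isg15: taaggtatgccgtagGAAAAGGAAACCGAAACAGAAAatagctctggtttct
Ifit1: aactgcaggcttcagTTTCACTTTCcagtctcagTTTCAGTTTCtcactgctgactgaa
Ifit3: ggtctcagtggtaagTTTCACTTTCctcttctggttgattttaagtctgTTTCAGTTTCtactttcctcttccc
Ifit3b: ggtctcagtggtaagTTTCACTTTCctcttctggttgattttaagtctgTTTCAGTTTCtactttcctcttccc
Rsad2: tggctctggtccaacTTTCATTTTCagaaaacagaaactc
Gbp2: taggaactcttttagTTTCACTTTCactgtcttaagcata
Igtp: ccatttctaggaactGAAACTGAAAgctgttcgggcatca
Cxcl10: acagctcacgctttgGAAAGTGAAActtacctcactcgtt
Trim30a: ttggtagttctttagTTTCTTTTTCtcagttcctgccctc

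The Stat2 excerpt is chr10:128270261-128270300 on the plus strand, and that of Isg15 is chr4:156200860-156200911 on the minus strand. Isg15 held 3 overlapping matches in a run that began 78 bases before its start. Ifit1 (chr19:34640770-34640828, plus strand) held 2 matches. Ifit3 (chr19:34583358-34583431, plus strand) and Ifit3b (chr19:34607754-34607827, plus strand) also held 2 each, and their excerpts are letter for letter the same. The windows of this neighbouring gene pair shared an identical run of 169 bases, and 75% of 268 bases that could be aligned without gaps were the same. The excerpts of Rsad2 (chr12:26456548-26456587), Cxcl10 (chr5:92349078-92349117) and Trim30a (chr7:104465205-104465244) lie on the minus strand. Those of Gbp2 (chr3:142620589-142620628) and Igtp (chr11:58199507-58199546) lie on the plus strand. No match was found in the windows of Irf7, Irf9, Cxcl9 or Xaf1, which says only that these letters are not in those windows.

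The values are FPKM, reads scaled by gene length and library size as the authors did it. Reads recovered from them came to 16869716 to 18485698 per library, and a library held 5 to 4186 reads per interferon response gene, with a median of 191.5. Trpv3 itself did not match its label as a lost transcript. Its FPKM was 2.06, 2.71 and 1.13 in untreated wild type skin, and 3.17, 3.64 and 2.62 in untreated skin labelled knockout. After MC903 it was 16.1, 17.0 and 19.0 in wild type skin and 6.82, 6.78 and 4.73 in skin labelled knockout. The untreated groups differed by 0.61 ± 0.22 (log2, SE, limma adjusted p = 0.103) and the MC903 groups by -1.45 ± 0.22 (adjusted p = 0.000316), so the genotype is called labelled knockout throughout. The table does not separate a deleted part of the gene from the rest.

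The 12 libraries did not vary alike within their groups. In wild type skin given MC903, replicate 2 held the highest value of its group for 37 of the 39 genes and replicate 3 the lowest for 36 of 39. Over all 17646 genes tested, those libraries were highest for 32.1% and lowest for 35.5%. Replicate 2 exceeded replicate 3 by a median of 2.41 times over the 39 genes and by at least 2 times for 26 of them, whereas 5.53% of all genes differed that much in that direction and the median over all genes was 1.003. In skin labelled knockout given MC903, replicate 1 was the lowest library for 37 of 39 genes, against 35.4% of all genes. The spread is shown in the plot of deviations from group means. Counts over the interferon response genes as a whole that rest on MC903 wild type libraries are given with and without replicates 2 and 3. Most results of the other gene lists and of the cell type markers are given on all libraries only.

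**Figure D1:**
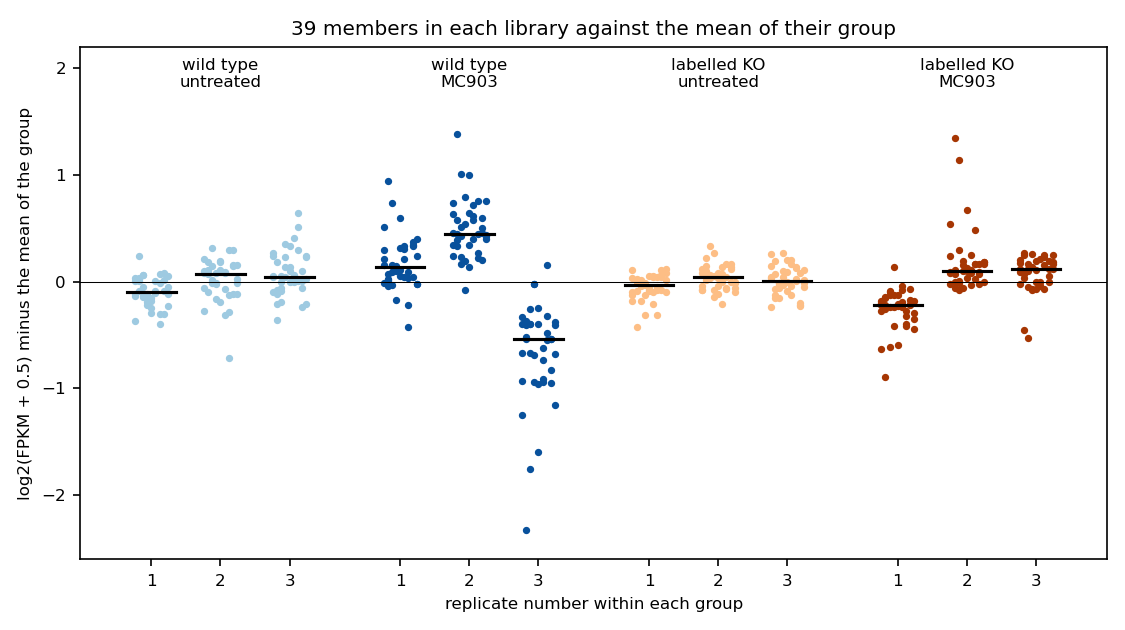
Deviation of each of the 39 interferon response genes from the mean of its own group, in log2(FPKM + 0.5), for each of the 12 libraries; a point is a gene and the bar is the median over genes. In wild type skin given MC903, points of replicate 2 lie mostly above 0 and those of replicate 3 mostly below 0, with Cxcl9 at the lower end of replicate 3.

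In untreated wild type skin most of these genes were expressed at low levels. The mean FPKM was below 1 for 13 of 39 genes and at least 10 for 2, which were Ifi27, a mitochondrial protein of interferon-treated cells, and Bst2, the tetherin that holds budding virus particles at the cell surface. The next levels were those of Ifit3 (8.88 ± 2.47, SD, n = 3), Gbp2 (6.90 ± 1.05) and Ifi35 (6.37 ± 1.46), which lie within each other's spread. Oas3, a synthetase of the 2-5A messenger, had the lowest level, at 0.0529 ± 0.0195. After MC903, 10 genes had a mean of at least 10 in wild type skin and 3 did in skin labelled knockout.

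**Figure D2:**
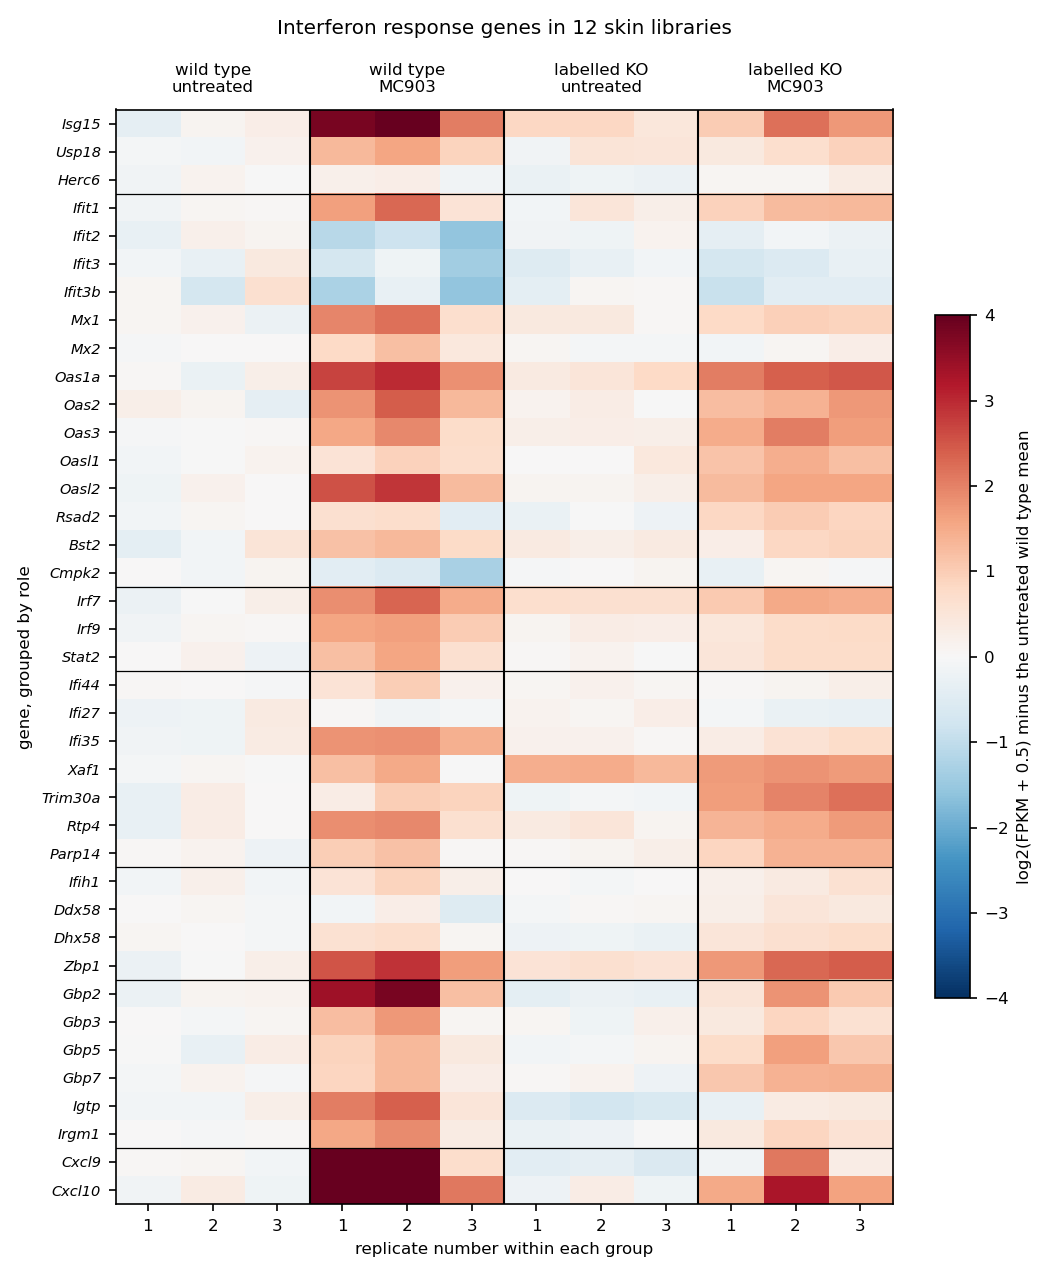
Level of the 39 genes in the 12 libraries as log2(FPKM + 0.5) minus the mean of untreated wild type skin, with genes in rows grouped by role and replicate numbers in columns; the colour scale ends at a difference of 4 in either direction, and larger ones are drawn at its ends. Wild type skin given MC903 holds the strongest colours, in Cxcl9, Cxcl10, Isg15 and Gbp2 of replicates 1 and 2, and Ifit2, Ifit3, Ifit3b and Cmpk2 are the rows that turn blue there.

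MC903 raised most interferon response genes of wild type skin. Of the 38 genes that passed the filter on low values (FPKM of at least 0.5 in at least 3 libraries), 30 rose, 4 fell and 4 did not pass, by limma at an adjusted p below 0.05. Of all genes tested 63% passed this comparison, 32.6% higher and 30.3% lower. The median log2 fold change was 1.11 over the 38 genes and 0.02 over all genes. The groups did not overlap for 27 genes higher and 2 lower in MC903 skin, against 33% and 31.1% of all genes (64.1% in either direction). Without MC903 replicate 3 the calls were 31 higher and 2 lower, and without replicate 2 they were 24 and 4. Rescaling to TPM put the median of all genes at -0.40, and 26.7% of the 11493 genes that then passed were higher. On that scale 22 of the 38 genes rose and 6 fell. In the same comparison all 5 neutrophil markers tested rose, 6 of 8 keratinocyte markers rose and 1 fell, and all 6 fibroblast markers fell. The part of these cell types in the result was not tested. Ifi44, the gene that did not pass the filter, ranged from 0.102 to 0.156 in untreated and from 0.204 to 0.753 in MC903 wild type skin. In skin labelled knockout it ranged from 0.166 to 0.214 without treatment and from 0.144 to 0.238 after MC903.

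All 3 transcription factors of the pathway rose in wild type skin, where 32.6% of all genes rose. Irf7, the factor that amplifies interferon alpha production, was at 1.24, 1.52 and 1.91 FPKM in untreated skin and at 6.94, 9.64 and 5.19 after MC903. The groups did not overlap, and the log2 fold change was 1.89 ± 0.20 (SE, n = 3 against 3, limma adjusted p = 1.07e-05). Stat2, a subunit of the type I interferon complex, rose from 4.32, 4.88 and 3.60 to 10.5, 13.7 and 6.81 FPKM (1.14 ± 0.20, adjusted p = 0.000418). Irf9, the DNA-binding subunit of that complex, rose from 4.21 ± 0.36 to 12.2 ± 2.8 (SD, n = 3).

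On the log2(FPKM + 0.5) scale Isg15, Cxcl9 and Cxcl10 had the largest increases. The added 0.5 sets this order in part, since Oas3, which is low, went from a mean FPKM of 0.0529 to 1.03 and ranks lower on this scale than by the ratio of its means. Isg15, a ubiquitin-like protein that is attached to other proteins and also secreted, was at 1.33, 2.03 and 2.35 FPKM without treatment and at 32.3, 37.9 and 9.22 after MC903. Its lowest MC903 library was still above its highest untreated one (3.29 ± 0.45, limma adjusted p = 7.86e-05). Usp18, the protease that removes ISG15 and dampens receptor signalling, rose from 0.917 ± 0.163 to 2.93 ± 0.82 FPKM (SD, n = 3). Herc6, the mouse ligase for ISG15, was at 0.441 ± 0.094 and 0.516 ± 0.149 and did not pass (adjusted p = 0.593).

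Cxcl9 and Cxcl10 encode chemokines that attract Cxcr3-bearing T and NK cells. Cxcl9 was at 1.27, 1.33 and 1.09 FPKM in untreated wild type skin and at 26.9, 36.6 and 2.33 after MC903 (3.04 ± 0.82, limma adjusted p = 0.00718). Cxcl10 was at 0.379, 0.705 and 0.348 without treatment and at 23.2, 28.0 and 3.70 after MC903 (3.87 ± 0.65, adjusted p = 0.000327). MC903 replicates 1 and 2 were high and replicate 3 was low for both genes, although each MC903 library lay above every untreated one. The highest library exceeded the lowest 15.7 times for Cxcl9.

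All 6 interferon-inducible GTPases, which attack membranes around intracellular microbes, rose in wild type skin, against 32.6% of all genes. Gbp2 was at 5.69, 7.45 and 7.56 FPKM without treatment and at 77.3, 102.3 and 16.5 after MC903 (2.81 ± 0.54, limma adjusted p = 0.000878). The median log2 fold change of the 6 genes was 1.13, and after rescaling to TPM 3 of them passed, with a median of 0.76. The GTPases Igtp and Irgm1 rose by 1.64 ± 0.39 and 1.25 ± 0.31, and Gbp3, Gbp5 and Gbp7 by 0.81 to 1.01. Without MC903 replicate 2 the calls of Gbp3 (adjusted p = 0.066) and Gbp5 (0.0657) were lost, as was that of Gbp3 without MC903 replicate 1 and that of Gbp5 without untreated replicate 2.

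The antiviral effectors were split, with 9 of 14 higher, 4 lower and 1 that did not pass. Of all genes 32.6% were higher and 30.3% lower, so the share that fell was near that of all genes. The oligoadenylate synthetase family is named for enzymes whose 2-5A product activates an RNA-cutting enzyme. All 5 genes of this family among the 39 rose (Oas1a by 2.51 ± 0.26, Oasl2 by 2.22 ± 0.32, Oas2 by 1.84 ± 0.26, Oas3 by 1.39 ± 0.26 and Oasl1 by 0.73 ± 0.16). Ifit1, Mx1, Mx2 and Bst2 also rose, by 0.81 to 1.62. Rsad2, the viperin enzyme, was at 1.03, 1.26 and 1.17 FPKM without treatment and at 2.07, 2.199 and 0.728 after MC903, and did not pass (0.31 ± 0.25, adjusted p = 0.296).

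The genes that fell in wild type skin were Ifit2, Ifit3, Ifit3b and Cmpk2. The Ifit proteins bind foreign RNA and block its translation, and Cmpk2 is a mitochondrial nucleotide kinase next to Rsad2. Ifit2 was at 3.56, 5.18 and 4.83 FPKM without treatment and at 1.80, 2.30 and 1.18 after MC903, with no overlap (-1.17 ± 0.19, limma adjusted p = 0.000228). Cmpk2 was at 1.71, 1.52 and 1.86 and then at 1.15, 1.005 and 0.401, also with no overlap (-0.75 ± 0.20, adjusted p = 0.00737). Ifit3 was at 8.09, 6.90 and 11.7 and then at 5.14, 7.65 and 3.04, so that the groups overlapped (-0.75 ± 0.27, adjusted p = 0.0313). Ifit3b was at 2.11, 1.02 and 3.37 and then at 0.538, 1.54 and 0.328, with an overlap as well (-1.04 ± 0.37, adjusted p = 0.0283). Ifit3 and Ifit3b are near-identical copies whose reads the counting could have split, so their separate values are uncertain. The calls of Ifit3 and Ifit3b were lost without untreated replicate 1 or 3 and without MC903 replicate 1 or 3 (highest adjusted p = 0.127 and 0.112), while those of Ifit2 and Cmpk2 passed when any of the 12 libraries was left out.

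Of the sensors of foreign nucleic acid, 3 of 4 rose in wild type skin, against 32.6% of all genes. Zbp1, a sensor of Z-form nucleic acid, rose by 2.36 ± 0.28 (limma adjusted p = 2.25e-05), Ifih1 (MDA5) by 0.56 ± 0.17 and Dhx58 (LGP2) by 0.46 ± 0.15. Ddx58 (RIG-I) was at 3.75 ± 0.22 and 3.53 ± 1.08 FPKM (SD, n = 3) and did not pass. The calls of Ifih1 (adjusted p = 0.0549) and Dhx58 (adjusted p = 0.0812) were lost without MC903 replicate 2, and that of Dhx58 also without MC903 replicate 1 or untreated replicate 3. Among the other induced genes Ifi35 rose by 1.68 ± 0.16, Rtp4 by 1.48 ± 0.29, Xaf1 by 0.89 ± 0.29, Trim30a by 0.73 ± 0.20 and Parp14 by 0.73 ± 0.25. Ifi27, the most abundant of the 39 genes, was at 43.0 ± 9.8 and 40.7 ± 2.7 FPKM and did not pass. The calls of Xaf1 and Parp14 were lost without MC903 replicate 1 or 2, and without untreated replicate 1 for Xaf1 and untreated replicate 3 for Parp14.

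The response to MC903 in skin labelled knockout was tested on the other 6 libraries, with no library shared. There 20 of 38 genes rose, 1 fell and 17 did not pass, where 47.9% of all genes passed (25% higher and 23% lower). The median log2 fold change was 0.77 over the 38 genes and -0.00 over all genes. Groups that did not overlap were counted for 30 genes higher and 2 lower, against 32% and 31% of all genes (63% in either direction). After rescaling to TPM 14 rose and 1 fell, where 8586 of all genes passed and 33.5% of these were higher. Of the genes that rose, 19 were among those that rose in wild type skin. The count of genes that rose was 13 without MC903 replicate 2 of this genotype and 29 when MC903 wild type replicate 3, which only sets the shared estimate of spread here, was left out. Leaving out other single libraries gave counts between these.

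On the log2(FPKM + 0.5) scale Cxcl10 and Trim30a had the largest increases among the genes that passed, while Oas3, at a mean FPKM of 0.156 and then 1.37, rose more than Trim30a by the ratio of means. Trim30a, a ubiquitin ligase that restrains Toll-like receptor signalling, was at 1.67, 1.81 and 1.75 FPKM in untreated skin labelled knockout and at 7.27, 9.09 and 10.7 after MC903. The groups lay far apart (2.07 ± 0.20, limma adjusted p = 1.75e-05). Cxcl10 was at 0.341, 0.698 and 0.358 without treatment and at 2.25, 8.80 and 2.42 after MC903 (2.15 ± 0.65, adjusted p = 0.0184). Its replicate 2 was high, and the other MC903 libraries still lay above every untreated library. The call of Cxcl10 was lost without MC903 replicate 2 (adjusted p = 0.0805) and without untreated replicate 1 or 3.

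Oas1a was at 0.896, 1.001 and 1.40 FPKM in untreated skin labelled knockout and at 3.95, 5.23 and 5.56 after MC903 (1.76 ± 0.26, limma adjusted p = 0.000294). Zbp1 was at 0.841, 0.921 and 0.837 and then at 2.56, 4.05 and 4.38 (1.58 ± 0.28, adjusted p = 0.00081). Neither gene had groups that overlapped. The 5 listed genes of the oligoadenylate synthetase family rose in this genotype too, and so did Rsad2 (1.04 ± 0.25), Dhx58 (0.84 ± 0.15), Gbp5, Gbp7, Rtp4 and Parp14. Ifi27 fell by 0.37 on the log2 scale, from 46.8, 44.7 and 50.8 to 40.1, 34.9 and 34.6 FPKM (SE 0.14, adjusted p = 0.0409). That call was lost in 7 of the 12 fits that left out a library, which were those without MC903 wild type replicate 2 or 3, without any of the 3 untreated libraries labelled knockout, and without MC903 replicate 2 or 3 labelled knockout.

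Of genes that rose in wild type skin, Isg15 and Cxcl9 did not pass in skin labelled knockout, while Irf7 and Stat2 passed. Isg15 was at 3.66, 3.67 and 2.77 FPKM without treatment and at 4.30, 10.3 and 7.43 after MC903 (0.95 ± 0.45, limma adjusted p = 0.106). Cxcl9 was at 0.781, 0.852 and 0.659 and then at 1.06, 6.90 and 1.61 (1.20 ± 0.82, adjusted p = 0.254). For both genes each MC903 library lay above every untreated one, yet the increase missed the adjusted threshold. Irf7 rose from 2.72, 2.69 and 2.66 to 3.72, 5.30 and 5.12 FPKM (0.69 ± 0.20, adjusted p = 0.0144). Stat2 rose from 4.42, 4.70 and 4.21 to 6.19, 7.32 and 7.33 (0.59 ± 0.20, adjusted p = 0.0299). The call of Irf7 was lost without MC903 replicate 2 labelled knockout (adjusted p = 0.0576), and that of Stat2 without any of the untreated libraries labelled knockout or MC903 replicates 2 and 3 (highest adjusted p = 0.0857). Ifit2, Ifit3, Ifit3b and Cmpk2, which fell in wild type skin, had log2 fold changes of -0.49 to -0.11 here and did not pass.

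**Figure D3:**
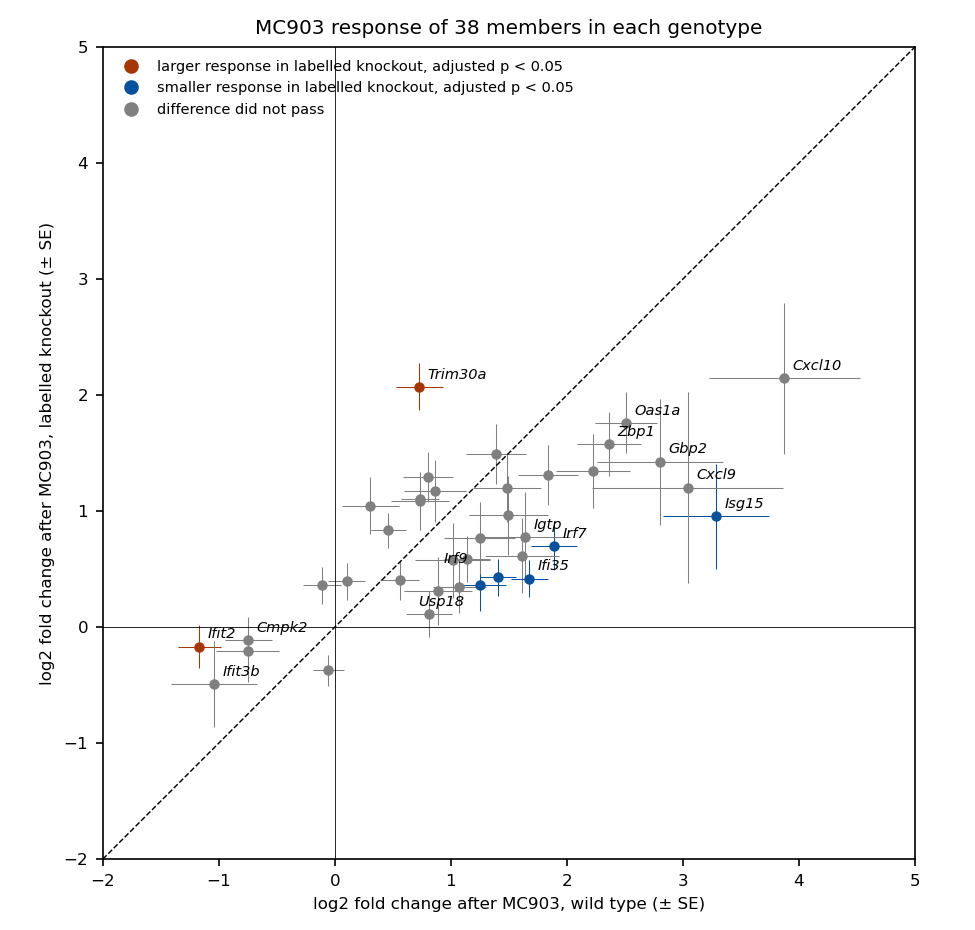
Log2 fold change after MC903 in wild type skin (horizontal axis) and in skin labelled knockout (vertical axis) for 38 genes, with SE of the fit as bars and the dashed line marking equal responses. Isg15, Irf7, Irf9, Usp18 and Ifi35 lie below the line and Trim30a and Ifit2 above it, and the difference passed the test for these 7 genes.

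The difference of the 2 responses was tested itself. It passed for 7 of 38 genes, where 39.7% of all genes passed, with 5 genes lower (19.7% of all genes) and 2 higher (20%). The share of interferon response genes that passed was below that of all genes here. It stayed below with any library but 1 left out, such as 8 of 38 against 37.5% without MC903 wild type replicate 2. The exception was MC903 wild type replicate 3, without which 22 of 38 genes passed against 36.6% of all genes. That library was the lowest of its group for 36 of the 39 genes, so leaving it out raises most wild type MC903 means. It also changes the shared estimate of spread, by which genes called higher in skin labelled knockout after MC903 went from 20 to 29. The part of each in the 22 was not tested. The log2 fold change, taken with its sign, was higher in wild type skin for 24 genes and in skin labelled knockout for 14. Those 14 include Ifit2, Ifit3, Ifit3b and Cmpk2, which fell in wild type skin. The median difference was -0.50 over the 38 genes and -0.01 over all genes. After rescaling to TPM 4 genes were lower and 4 higher, with a median of -0.25 against one of 0.25 over all genes.

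Isg15 responded less in skin labelled knockout by 2.33 on the log2 scale (difference -2.33 ± 0.64, limma adjusted p = 0.0147). Irf7 differed by -1.19 ± 0.28 (adjusted p = 0.00695) and Irf9 by -0.98 ± 0.22 (adjusted p = 0.00566). Irf9 was at 3.80, 4.47 and 4.37 and then 13.4, 14.2 and 8.97 FPKM in wild type skin, and at 4.53, 5.31 and 5.16 and then 5.94, 7.31 and 7.54 in skin labelled knockout. Each wild type MC903 library lay above each MC903 library labelled knockout.

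Ifi35, a partner of the interferon-induced protein Nmi, had a difference of -1.26 ± 0.22 (limma adjusted p = 0.00147). Its FPKM in wild type skin was 5.62, 5.45 and 8.05 without treatment and 22.8, 23.3 and 17.8 after MC903. In skin labelled knockout it was 7.14, 7.07 and 6.47 and then 7.91, 9.61 and 10.8. The 3 treated wild type libraries stood apart from all 9 others. The call of Usp18 (-0.89 ± 0.31, adjusted p = 0.0421) was lost in 8 of the 12 fits that left out a library, and passed only without untreated wild type replicate 3, MC903 wild type replicate 3, untreated replicate 1 labelled knockout or MC903 replicate 3 labelled knockout.

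Trim30a and Ifit2 differed in the other direction. For Trim30a, which was at 1.45, 2.47 and 1.93 and then 2.49, 4.32 and 3.96 FPKM in wild type skin, the difference was 1.34 ± 0.29 (limma adjusted p = 0.00398). For Ifit2 it was 0.998 ± 0.264 (adjusted p = 0.0121), since the gene fell in wild type skin and was at 4.01, 3.91 and 4.99 and then 3.40, 4.16 and 3.73 FPKM in skin labelled knockout. The calls of Isg15, Irf7, Irf9, Ifi35, Trim30a and Ifit2 passed in each of the 12 fits that left out a library. With voom on the recovered reads that of Isg15 was lost (adjusted p = 0.0544).

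For Stat2, Cxcl9 and Cxcl10 the difference did not pass, at -0.55 ± 0.28 (adjusted p = 0.139), -1.84 ± 1.16 (adjusted p = 0.23) and -1.73 ± 0.92 (adjusted p = 0.158). These values turned on a single library. Without MC903 wild type replicate 3, the difference passed as lower in skin labelled knockout for 20 of 38 genes and as higher for 2. Of all genes 36.6% then passed in either direction. Cxcl9 was then at -3.01 (limma adjusted p = 0.00735), Cxcl10 at -2.61 (adjusted p = 0.00822), Gbp2 at -2.18 (adjusted p = 0.00259) and Stat2 at -0.81 (adjusted p = 0.00967). Without replicate 2 the counts were 4 lower and 4 higher. The labels give no reason to leave out either library.

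**Figure D4:**
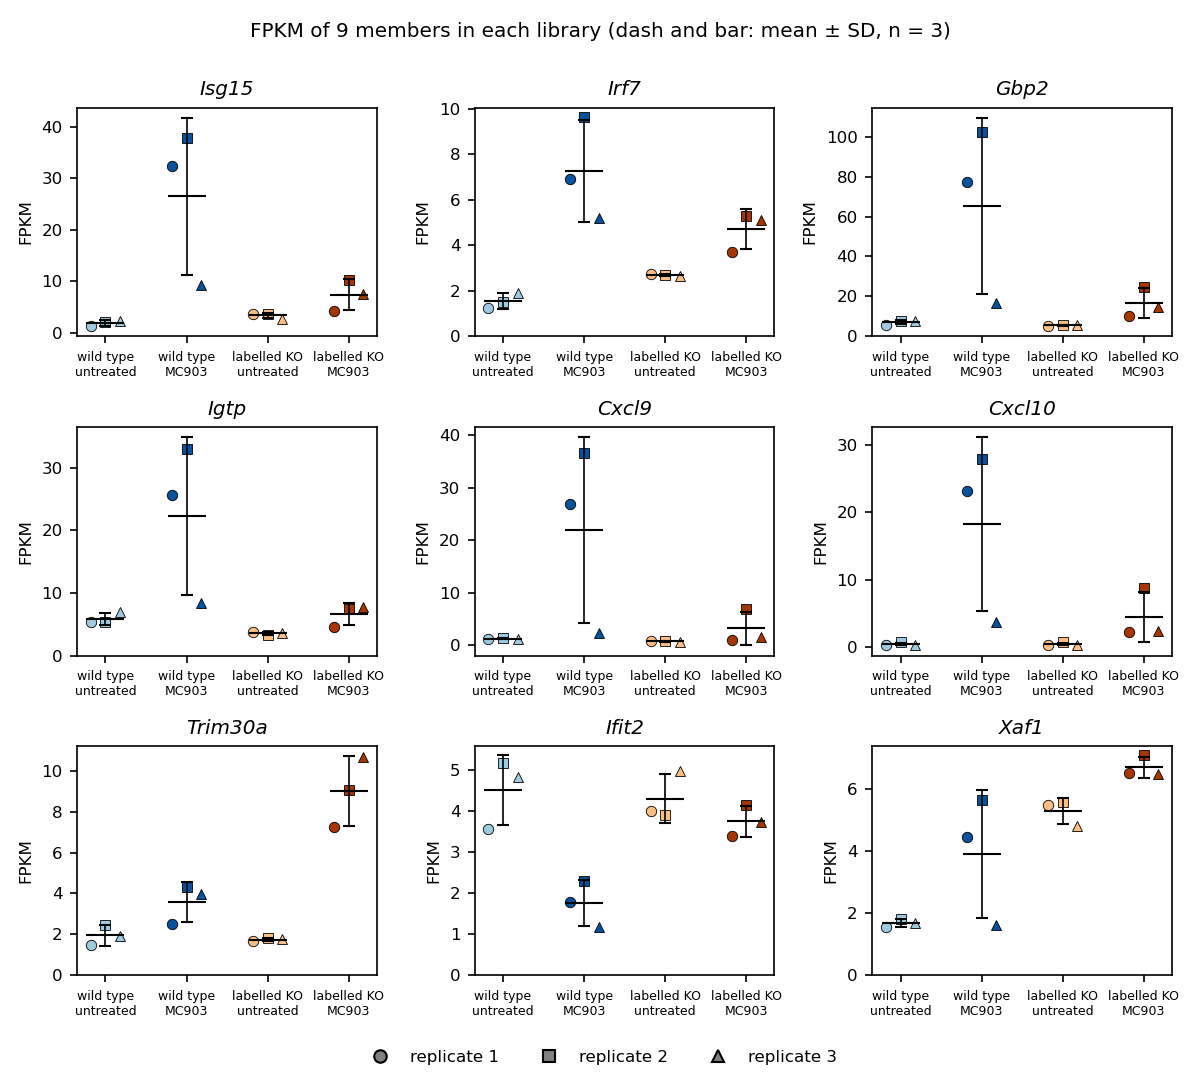
FPKM of Isg15, Irf7, Gbp2, Igtp, Cxcl9, Cxcl10, Trim30a, Ifit2 and Xaf1 in each library of the 4 groups; symbols mark the replicate number and the dash with its bar is the mean ± SD of 3 libraries. Replicate 3 of wild type skin given MC903 sits well below the other MC903 libraries of that genotype for Isg15, Gbp2, Igtp, Cxcl9, Cxcl10 and Xaf1, and Trim30a is highest in skin labelled knockout given MC903.

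Without treatment the genotypes differed in 1 of 38 genes, Xaf1, where 11.7% of all genes passed (7.15% higher and 4.55% lower in skin labelled knockout). Xaf1, an antagonist of the apoptosis inhibitor XIAP, was at 1.54, 1.80 and 1.66 FPKM in wild type skin and at 5.48, 5.57 and 4.81 in skin labelled knockout. The groups lay far apart (1.42 ± 0.29, limma adjusted p = 0.0129), and the call missed the threshold without untreated labelled knockout replicate 2 (1.38, adjusted p = 0.0533). Xaf1 lies on chromosome 11 at chr11:72301629-72313733 (mm10), 0.954 megabases from Trpv3. Whether its level follows from sequence carried along with the Trpv3 allele was not tested. The median over the 38 genes was 0.05 and that over all genes 0.01. Groups that did not overlap were counted for 7 genes higher and 4 lower, against 16.9% and 14.2% of all genes (31.1% in either direction). Isg15 (0.70 ± 0.45, adjusted p = 0.346) and Irf7 (0.65 ± 0.20, adjusted p = 0.0599) did not pass, although each library labelled knockout lay above every wild type one for both. Stat2, Cxcl9 and Cxcl10 differed by 0.06, -0.45 and -0.02.

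After MC903 the genotypes differed in 16 of 38 genes, 6 higher and 10 lower in skin labelled knockout, where 52.1% of all genes passed (25.9% higher and 26.1% lower). This comparison shares its libraries with those above, so that its values are set beside them and add no independent count. The median was -0.20 over the 38 genes and -0.03 over all genes. After rescaling to TPM 9 genes were higher and 5 lower, the median over the 38 genes was 0.07 and that over all genes 0.24. The groups did not overlap for 6 genes higher and 4 lower, against 31% and 31.7% of all genes (62.7% in either direction). Without MC903 wild type replicate 3 the counts were 4 higher and 18 lower, without replicate 2 they were 9 and 5, and without replicate 1 they were 5 and 5. Leaving out MC903 replicates 1, 2 or 3 of skin labelled knockout gave 5 and 5, 2 and 9, or 3 and 6.

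The genes lower in skin labelled knockout given MC903 were Cxcl9 (-2.29 ± 0.82), Cxcl10 (-1.75 ± 0.65), Gbp2 (-1.69 ± 0.54), Isg15 (-1.63 ± 0.45), Igtp (-1.50 ± 0.39), Ifi35 (-1.13 ± 0.16), Irf9, Mx2, Usp18 and Irf7. In this group Gbp2 was at 10.03, 24.8 and 14.7 FPKM, so that it overlapped with wild type replicate 3. Cxcl9 and Cxcl10 overlapped likewise, and their adjusted p-values were 0.0359 and 0.042 in limma. Stat2 was lower by 0.49 on the log2 scale (difference -0.49 ± 0.20) and did not pass (adjusted p = 0.0564). Of these genes, Isg15, Irf9, Mx2, Ifi35 and Igtp kept their call in each fit that left out a library. The calls of Cxcl9 (highest adjusted p = 0.139), Cxcl10 (0.155) and Gbp2 (0.0891) were lost without MC903 wild type replicate 1 or 2 and without MC903 replicate 1 or 3 labelled knockout, and that of Cxcl10 also in 4 fits without an untreated library. Those of Irf7 and Usp18 were lost in 7 and 5 fits, with adjusted p up to 0.155 and 0.152.

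The genes higher in skin labelled knockout given MC903 were Trim30a (1.23 ± 0.20, limma adjusted p = 0.000473), Ifit2 (0.94 ± 0.19, adjusted p = 0.00156), Xaf1 (0.84 ± 0.29), Cmpk2 (0.66 ± 0.20), Oasl1 (0.53 ± 0.16) and Ddx58 (0.48 ± 0.16). Xaf1 was at 4.45, 5.63 and 1.63 FPKM in wild type and at 6.49, 7.08 and 6.48 in skin labelled knockout, with no overlap. Cmpk2 was at 1.27, 1.82 and 1.64 in skin labelled knockout, above each wild type library. Trim30a and Ifit2 kept their calls in each fit that left out a library. The call of Xaf1 was lost without any of the MC903 libraries labelled knockout (adjusted p up to 0.081), and that of Cmpk2 without replicate 2 or 3 of them (0.0664 and 0.0521). Those of Oasl1 and Ddx58 were lost without MC903 wild type replicate 1 or 3, and without replicate 2 of the libraries labelled knockout or, for Ddx58, replicate 3.

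The interferons themselves were near the limit of detection. Of 21 ligand genes of the table, 9 had a read in any library and 3 had more than 3 reads in a library, and none passed the filter. Ifng, the gene of interferon gamma, had 11, 16 and 4 reads in wild type skin given MC903. It had 0 reads in each untreated wild type library, 1, 2 and 0 in untreated and 0, 2 and 2 in MC903 skin labelled knockout. A count of 0 allows up to 3 reads in a library of this depth, which covers counting error only. Ifnb1 had 5 reads in MC903 labelled knockout replicate 1, Ifnk had 4 in untreated labelled knockout replicate 2, and both had 0 in the other libraries. Since no ligand gene passed the filter, no test of these reads is given.

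In wild type skin 3 of 9 receptors and kinases rose and 3 fell after MC903, with a median of 0.03, which is near the shares of all genes (32.6% and 30.3%). In skin labelled knockout 7 of 9 rose, against 25% of all genes, with a median of 0.49. Ifnar1 fell by 0.49 on the log2 scale in wild type skin and rose by 0.49 in skin labelled knockout, and its FPKM was 10.2, 10.3 and 11.02 and then 7.78, 7.55 and 6.63 in wild type skin against 13.4, 13.1 and 12.6 and then 16.7, 19.0 and 19.9 in skin labelled knockout (difference of the responses 0.98 ± 0.12, limma adjusted p = 0.000218). Il10rb, a chain of the interferon lambda and interleukin 10 receptors, had a difference of 0.97 ± 0.16 and Jak2, the kinase of the gamma receptor, of 0.82 ± 0.13. The difference passed for 6 of 9 genes higher (20% of all genes) and 1 lower (19.7%), which was Ifnlr1, the specific chain of the lambda receptor. After rescaling to TPM the counts were 1 higher and 6 lower in wild type skin, 4 higher and 1 lower in skin labelled knockout, and 6 higher and 0 lower for the difference. TPM moved all genes as well. Of all genes that passed on that scale, 26.7%, 33.5% and 72.2% were higher in these 3 comparisons.

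Of 7 STAT and IRF transcription factors outside the 39 genes, 6 rose after MC903 in wild type skin and 5 in skin labelled knockout. Of all genes 32.6% and 25% rose. The difference of the responses passed for 1 of the 7 factors, where 39.7% of all genes passed. That factor was Irf3, which switches on interferon genes after nucleic acid is sensed. Its response was smaller in skin labelled knockout (difference -1.10 ± 0.20, limma adjusted p = 0.00146).

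Targets of interferon gamma and genes of class I antigen presentation rose in wild type skin in 11 of 18 tested genes, against 32.6% of all genes, and 0 fell. Of these genes 4 rose in skin labelled knockout, a share near the 25% of all genes, and 0 fell. The difference was lower for 8 (19.7% of all genes) and higher for 1 (20%), which was Ciita. H2-K1, a class I heavy chain, had a difference of -1.69 ± 0.18 (limma adjusted p = 0.000109), Tap1, the peptide transporter, of -1.77 ± 0.28, and Nlrc5, the class I transactivator, of -1.99 ± 0.38. The H2-K1 reads were 5387, 6136 and 6044 without and 20207, 16957 and 15797 with MC903 in wild type skin, and 5929, 6615 and 5908 without and 5422, 6772 and 7362 with MC903 in skin labelled knockout. The count of lower differences was 8 also after rescaling to TPM and without MC903 wild type replicate 2, and 11 without replicate 3.

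Of 13 sensors and adaptors outside the 39 genes, 5 rose and 5 fell in wild type skin, and 9 rose and 1 fell in skin labelled knockout. The wild type split is near that of all genes (32.6% higher and 30.3% lower), and in skin labelled knockout 25% of all genes rose and 23% fell. Tlr4, Tlr7 and Tlr9, receptors for lipopolysaccharide and for foreign RNA and DNA, fell in wild type skin (-1.25, -0.89 and -0.70) and rose in skin labelled knockout (0.77, 0.75 and 0.88). Their differences were 2.02 ± 0.24, 1.63 ± 0.29 and 1.58 ± 0.23, and limma's adjusted p-values were 0.00018, 0.00138 and 0.000457. Of 7 negative regulators tested, 5 rose in each genotype after MC903, against 32.6% and 25% of all genes, and Pias1, an inhibitor of STAT factors, fell in wild type skin. The difference was lower for 3 of the 7 (19.7% of all genes) and higher for 1 (20% of all genes), which was Pias1 (0.40 ± 0.14, limma adjusted p = 0.0421). Socs1 and Socs3, inhibitors of the receptor kinases, and Samhd1, which depletes nucleotides, responded less in skin labelled knockout (-1.32 ± 0.44, -1.01 ± 0.33 and -1.10 ± 0.27). Trex1 is listed at 0 in every library.

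Cxcr3, the receptor for both chemokines, did not rise with its ligands in wild type skin. After MC903 it rose by 1.28 on the log2 scale in skin labelled knockout, where Cxcl10 rose as well. The FPKM of Cxcr3 was 0.958, 0.602 and 1.09 in untreated and 1.002, 0.888 and 0.826 in MC903 wild type skin. In skin labelled knockout it was 1.45, 0.848 and 0.992 without treatment and 3.25, 3.29 and 3.46 after MC903. The latter 3 libraries stood apart from all others (difference of the responses 1.24 ± 0.23, limma adjusted p = 0.00193), and they had 102, 103 and 111 reads.

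Markers of cell types moved with the groups. In wild type skin, where 32.6% of all genes rose and 30.3% fell, MC903 raised all 5 neutrophil markers tested (median 4.35). Of 8 keratinocyte markers 6 rose and 1 fell, and of 10 macrophage markers 5 rose and 2 fell (median 0.13). Of 7 T and NK cell markers tested 2 rose and 3 fell. Of 5 dendritic and Langerhans cell markers tested 1 rose and 3 fell. All 6 fibroblast markers, 4 of 5 endothelial markers and 3 of 6 muscle markers fell. In skin labelled knockout 25% of all genes rose and 23% fell. There the compound raised all 5 neutrophil markers tested (median 4.37), all 10 macrophage markers and 5 of 7 T and NK cell markers. Of 8 keratinocyte markers 4 rose and 2 fell (median 0.09), and of 6 fibroblast markers 1 rose and 3 fell. Of 5 endothelial markers 2 rose, and all 6 muscle markers fell. After MC903, 25.9% of all genes were higher and 26.1% lower in skin labelled knockout than in wild type skin. All 10 markers of monocytes and macrophages were higher, with summed FPKM of 967.7 to 1459 against 372.2 to 451.0. The 11 markers of T and NK cells summed to 25.2 to 35.8 against 12.2 to 17.98, and 3 of 7 tested were higher. Keratinocyte markers were lower in 7 of 8 genes, with sums of 4549 to 6470 against 14948 to 22909. All 6 fibroblast markers and all 5 endothelial markers were higher, and all 6 markers of skeletal muscle were lower. Of the neutrophil markers 3 of 5 tested were higher, with sums of 2094 to 2747 against 998.8 to 1232, and Ly6g was at 0 in the 6 untreated libraries. Of the dendritic and Langerhans cell markers 4 of 5 tested were higher. The 4 markers of plasmacytoid dendritic cells summed to 2.32 to 3.37 against 0.922 to 1.52. Without treatment 7.15% of all genes were higher and 4.55% lower in skin labelled knockout. In that comparison 4 of 6 fibroblast markers were already higher, with sums of 4427 to 5128 against 1100 to 1987. So were 4 of 5 neutrophil, 4 of 10 macrophage, 2 of 5 dendritic and Langerhans cell and 1 of 7 T and NK cell markers tested. Of 5 endothelial markers 1 was lower, and no keratinocyte or muscle marker passed. Within wild type skin given MC903 the T and NK sums were 17.98, 16.5 and 12.2 in replicates 1, 2 and 3, and those of keratinocytes were 22909, 17076 and 14948. Endothelial sums (32.3, 34.0 and 31.1) and plasmacytoid dendritic cell sums (1.52, 1.16 and 0.922) were also lowest in replicate 3. Macrophage sums were highest there (372.2, 396.4 and 451.0). Sums of neutrophils (998.8, 1232 and 1018), fibroblasts (519.5, 645.0 and 549.9), muscle, and dendritic and Langerhans cells were lowest in another replicate. The part of these cell types in the values of the interferon response genes was not tested.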

How the data were processed

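The deposited gene table of FPKM values for 12 skin libraries was used; 3 samples of dorsal root ganglion were not used here. Per the submitters' processing notes reads were counted with featureCounts on mm10; the tool that made the FPKM is not given in the sources used here. FPKM times gene length gave whole reads for 100.0% of values (tolerance 0.01), and the implied library denominators followed median-of-ratios size factors within 0.566%, so the authors' FPKM were taken as already scaled between libraries.

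Genes with FPKM of at least 0.5 in at least 3 libraries (17646) were fitted with limma 3.58.1 in R 4.3.3 on log2(FPKM + 0.5), with 4 groups, 8 residual degrees of freedom, eBayes with a trend, two-sided tests and Benjamini-Hochberg adjustment over all genes at 0.05. Fold changes on this scale understate those of low genes. The 5 contrasts and the alternatives (pseudocounts, filters, scalings, robust variances, library weights, voom on the recovered reads, replicate block, fewer groups, a 2-fold limit, each library left out) are taken up in the closing section. The procedure was tested on simulated data. All 39 genes have the same coordinates in GENCODE vM21. The 39 genes and the gene lists were chosen with earlier results of these data known. By the rule for named genes, values per library are given for Isg15, Irf7, Stat2, Cxcl9 and Cxcl10 and for up to 4 called genes per direction and comparison by size of change, and the other genes by counts, ranges and means. Genes of the other lists were named by lowest adjusted p (up to 3 per comparison), with the ligands above 0; Ifnlr1, Ly6g and the values per library of Rsad2 were added after their values were seen. Python 3.11.15 with pandas 2.3.3 and matplotlib 3.10.9 was used. One further gene that the rule names is not reported here.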

Additional observations from a re-analysis of the deposited data

Results flagged for a closer look

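The MC903 response of 7 interferon response genes differed between the genotypes by the test of the difference itself (log2, skin labelled knockout minus wild type, limma, adjusted over 17646 genes). It was smaller in skin labelled knockout for Isg15 (-2.33), Ifi35 (-1.26), Irf7 (-1.19), Irf9 (-0.98) and Usp18 (-0.89), and larger for Trim30a (1.34) and Ifit2 (0.998). Ifit2 fell in wild type skin, so its larger value means the absence of a call rather than a rise in skin labelled knockout. The call of Isg15 was lost with voom on the recovered reads (adjusted p = 0.0544), and that of Usp18 in 8 of the 12 fits that left out a library.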

How the results depend on the processing

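Depth limits the ligand genes and the genes under 1 FPKM, and 3 libraries a group limit all tests. Counts below are of the 38 interferon response genes unless all genes are named. For MC903 in wild type skin, 2 genes were lower with no filter, with only the groups compared, and at a fold of at least 2, where 4200 of all genes passed. For MC903 in skin labelled knockout, 0 were lower with no filter and at 2-fold (2283 of all genes). For untreated genotypes, 2 were higher with a pseudocount of 0.1 and 6 with library weights (6548 of all genes); 613 of all genes passed with only the groups compared and 441 at 2-fold. For MC903 genotypes, 6 were lower with no filter, 5 after rescaling to TPM, 3 higher and 5 lower with only the groups compared, and 1 higher and 6 lower at 2-fold (2489 of all genes). For the difference of responses, 4 were higher under TPM, 11 lower with library weights, 3 lower with voom, and 1 higher and 3 lower at 2-fold (2831 of all genes). The causes were not tested, except that a fold limit by its construction calls fewer genes.

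With each library left out in turn, genes higher and lower ranged from 24 to 31 and 2 to 4 (MC903, wild type), 13 to 29 and 0 to 1 (MC903, labelled knockout), 0 to 3 and 0 (untreated genotypes), 2 to 9 and 5 to 18 (MC903 genotypes), and 2 to 4 and 4 to 20 (difference). Of all genes, 752 to 3562 passed between untreated genotypes. The untreated difference of Cxcl10 (-0.02) ranged from -0.18 to 0.14 and was 0.090 with library weights; that of Stat2 (0.06) ranged from -0.044 to 0.15. Neither passed.

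Rescaling to TPM put the all-gene median at -0.40 (MC903, wild type), -0.18 (MC903, labelled knockout), 0.24 (MC903 genotypes) and 0.25 (difference). The share of all calls that were higher went from 51.8% to 26.7%, 52.1% to 33.5%, 49.8% to 73.7% and 50.3% to 72.2%. Scaled by total reads it was 40% in wild type skin, 49.7% between untreated genotypes (61.1% before) and 61.9% for the difference; at 2-fold it was 78.9% between untreated genotypes. Replicate numbers did not pair the samples (correlations of -0.13 to 0.17). With the replicate number as a block the counts were 30 and 4, 19 and 1, 1 and 0, 7 and 12, and 2 and 5.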
